A study of Homo sapiens with 9 samples.

Results

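The genes described are 6 metallothioneins (MT2A, MT1X, MT1E, MT1F, MT1G and MT1M), the zinc exporter SLC30A1, the zinc importer SLC39A10 and the metal-sensing transcription factor MTF1, which are 9 of the 20379 genes listed in the expression table. They were chosen by symbol, as zinc genes tied to MTF1, after the log2 fold change of MT2A between UXS1 siRNA and control siRNA was known. Their values against control siRNA are therefore a description. Calls of a test on them are counted beside the share or number over all genes, and nothing is read from them. All cells were HCCLM3, an established line from a human hepatocellular carcinoma. The groups were siRNA targeting UXS1, siRNA targeting MRPL42 and a non-targeting siRNA (siRNA-NC), here UXS1 siRNA, MRPL42 siRNA and control siRNA, with 3 poly(A) RNA-seq libraries each, lettered a to c. UXS1 makes UDP-xylose, with which glycosaminoglycan linkers begin, and MRPL42 belongs to the mitochondrial ribosome. The sources used here give no dose, no time after transfection and no siRNA sequence, nor do they tell if the libraries of a group are separate cultures, so errors and p-values reflect only how these libraries vary, possibly for technical reasons.

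Metallothioneins are small proteins rich in cysteine that hold zinc, copper and cadmium, and liver cells use them as a zinc buffer. When free zinc is high, MTF1 binds metal response elements and switches on the metallothionein genes and SLC30A1, whose product ZnT1 carries zinc out across the plasma membrane. SLC39A10 encodes ZIP10, which brings zinc in and is repressed by MTF1. Glucocorticoids and interleukin-6 signalling through STAT3 also raise metallothionein mRNA in hepatocytes.

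The metallothionein genes lie together on chromosome 16, where 11 of them span 119.1 kb of GRCh38 in the GENCODE 29 annotation. MT2A is at chr16:56608199-56609497, MT1E at chr16:56625475-56627112, MT1M at chr16:56632233-56633986, MT1F at chr16:56657694-56660698 and MT1X at chr16:56682424-56684196, all on the plus strand, and MT1G is at chr16:56666731-56668065 on the minus strand. Each has 3 exons. SLC30A1 is at chr1:211571568-211578742 on the minus strand with 2 exons, MTF1 at chr1:37809567-37859620 on the minus strand with 11 exons, and SLC39A10 at chr2:195575977-195737702 on the plus strand with 10 exons. Counts are read per gene and cover no intron or UTR separately.

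The metallothioneins are so alike that reads can be shared among them. Each of the 6 has a coding sequence of 186 bases with 61 codons before the stop, 20 of them for cysteine, and their 15 pairs are 88.7% to 95.2% identical. The coding sequences of MT2A and MT1X are shown because these were the metallothioneins with enough counts to pass the filter, and their separation rests on few bases. They differ at 14 positions, in capitals, and are identical at 172.
MT2A: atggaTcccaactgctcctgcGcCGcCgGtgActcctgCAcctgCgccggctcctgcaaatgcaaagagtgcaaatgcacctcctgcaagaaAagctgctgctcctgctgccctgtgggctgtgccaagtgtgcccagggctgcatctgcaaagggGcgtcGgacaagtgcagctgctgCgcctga
MT1X: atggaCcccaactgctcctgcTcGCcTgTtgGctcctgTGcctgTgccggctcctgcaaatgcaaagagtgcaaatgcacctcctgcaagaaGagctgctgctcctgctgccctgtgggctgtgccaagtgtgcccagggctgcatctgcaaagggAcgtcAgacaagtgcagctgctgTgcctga
The longest stretch without a difference between their annotated transcripts is 63 bases, against 65 between MT2A and MT1G and 68 between MT2A and the pseudogene MT2P1, the longest among 8 metallothionein pseudogenes compared. MT1X and MT1G share a run of 96 bases. The sources used here do not give how the authors treated reads matching several of these genes, and the level of each single metallothionein is therefore uncertain. All 9 genes had whole counts in all 9 libraries, while 15.1% to 16.4% of the values above 0 per library were not whole. The counts thus show no reads divided among these genes, but not whether shared reads were left out.

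The windows of 250 bases before the RefSeq starts of MT2A, MT1X and SLC30A1 are shown next, because they carry the letters of the element that MTF1 reads. Capitals mark matches on either strand to the core TGCGCNC (form 1) or TGCACNC (form 2), which do not overlap here.
MT2A, chr16:56608334-56608583, plus strand, GRCh38.p14: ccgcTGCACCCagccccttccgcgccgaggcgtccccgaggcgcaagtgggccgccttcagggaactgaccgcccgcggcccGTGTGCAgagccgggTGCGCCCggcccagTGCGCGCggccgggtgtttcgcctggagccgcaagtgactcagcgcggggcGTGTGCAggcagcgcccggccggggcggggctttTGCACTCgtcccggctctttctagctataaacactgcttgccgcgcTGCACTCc
MT1X, chr16:56682220-56682469, plus strand, GRCh38.p14: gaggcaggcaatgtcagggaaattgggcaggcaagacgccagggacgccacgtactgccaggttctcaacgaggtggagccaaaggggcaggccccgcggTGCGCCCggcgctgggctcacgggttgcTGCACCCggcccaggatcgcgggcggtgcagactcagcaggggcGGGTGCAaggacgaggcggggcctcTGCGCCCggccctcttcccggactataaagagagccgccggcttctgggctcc
SLC30A1, chr1:211579162-211579411, minus strand, GRCh38.p14: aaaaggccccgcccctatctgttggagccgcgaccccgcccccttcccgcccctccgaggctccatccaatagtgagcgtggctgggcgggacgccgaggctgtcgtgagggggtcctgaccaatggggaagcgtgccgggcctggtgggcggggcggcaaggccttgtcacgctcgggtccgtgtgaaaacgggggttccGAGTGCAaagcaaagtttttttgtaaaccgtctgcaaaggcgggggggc
MT2A held 7 matches, 2 of form 1 and 5 of form 2, and MT1X held 4, of which 2 were of each form. SLC30A1 had 1, of form 2. No match was in the window of MTF1 or in either window of SLC39A10. Of 35116 promoter windows of the same length, 24.83% held 1 or more matches, 0.37% held 4 or more and 0.03% held 7 or more. Taken alone, form 1 was in 16.79% and form 2 in 9.87% of them. The table of promoters gave a window for 5 of the 9 genes. The MT2A window lies inside the longer GENCODE gene model, since RefSeq starts MT2A later. Both SLC39A10 windows also lie inside the GENCODE model of that gene, and the SLC30A1 window lies before its model without touching it. The matches, or their absence, thus hold for the RefSeq starts and not for the gene coordinates given above. A match of letters is a description and does not show that MTF1 was bound.

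**Figure D1:**
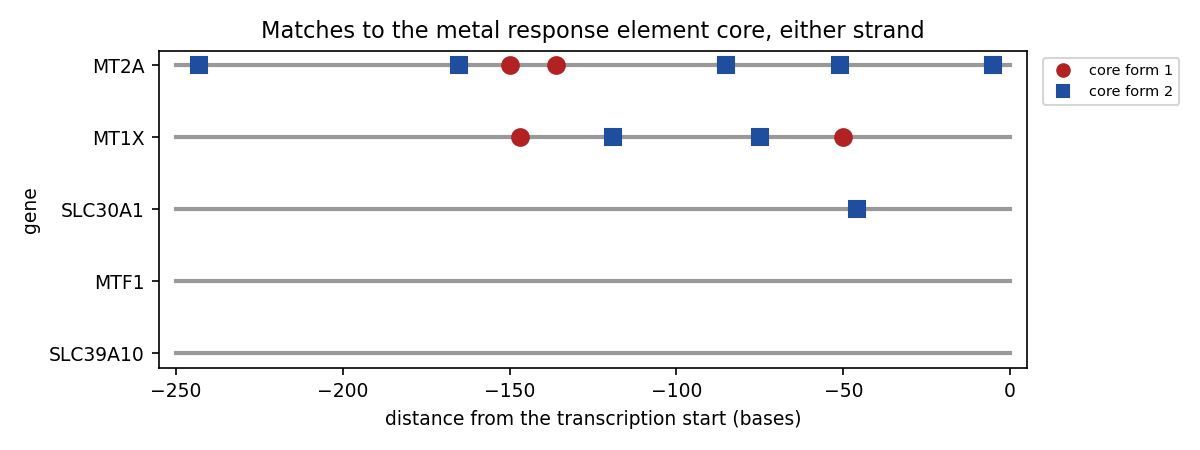
Positions of matches to the metal response element core in the 250 bases before the RefSeq start of 5 genes, with the start at 0 (x axis, bases). Circles are matches to form 1 and squares to form 2; MT2A has 7, MT1X 4, SLC30A1 1 and the others none.

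The 9 libraries held 15265959 to 22400560 estimated counts, and 12657 genes passed a filter on low counts. The targets of the siRNAs stood as follows. UXS1 was at 141 ± 3.43 CPM in UXS1 siRNA cells and 158 ± 18.8 CPM in control siRNA cells (CPM, counts scaled to the TMM-adjusted total of the library; SD, n = 3 each), and MRPL42 at 93.1 ± 11.3 CPM in MRPL42 siRNA cells and 122 ± 23.4 CPM in control siRNA cells. Neither passed edgeR's quasi-likelihood test (adjusted p = 0.348 for UXS1 and 0.185 for MRPL42; 0.519 and 0.252 without control library c), so the mRNA levels do not check the labels. Control library c stood apart, with Pearson's r across genes of 0.956 to 0.967 with the other libraries, against 0.985 or more among the other 8. Of the hepatocyte markers, 10 of 10 were in the table, 7 were tested and none was at 0 throughout. No fibroblast or leukocyte marker was at 0 throughout either, so this does not check the liver label. The hepatocyte markers summed to 221 to 239 CPM in the knockdown libraries and to 246, 234 and 217 CPM in control libraries a, b and c. Their mean relative level was -0.04 to 0.19 on the log2 scale in the knockdown libraries and 0.29, 0.13 and -1.004 in control libraries a, b and c, although HNF4A, one of them, was highest in library c at 111 CPM. Of the 5 fibroblast markers, LUM made nearly the whole sum, at 35.4 to 44.0 CPM in the knockdown libraries and 35.4, 37.1 and 277 CPM in control libraries a, b and c, while COL1A1, COL1A2 and PDGFRB stayed below 1 CPM in every library and COL3A1 at no more than 1.29 CPM. The 4 endothelial markers, of which CDH5 was at 0 throughout, summed to 23.97 CPM in library c and to between 58.7 and 72.0 CPM elsewhere. The 4 leukocyte markers, none at 0 throughout, summed to 95.9 to 109 CPM in the knockdown libraries, against 72.5, 73.3 and 130 CPM in control libraries a, b and c. Only 1 of these 4 passed the filter, so their sum followed 1 gene and does not stand for leukocytes. The 4 RNA quality markers in the table, all histone genes, summed to 23.4 to 29.1 CPM in the knockdown libraries, against 21.5, 21.5 and 54.2 CPM in control libraries a, b and c. Both lists thus stood lower in control libraries a and b than in all 6 knockdown libraries, and highest in library c. The part of these markers in the values was not tested.

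MT2A was the main metallothionein of HCCLM3 cells and stood lower in all 6 knockdown libraries than in control libraries a and b, but not lower than in control library c. It had 5.499, 6.57 and 6.80 CPM in UXS1 siRNA libraries a, b and c, from 96, 147 and 105 counts. It had 6.72, 7.24 and 8.55 CPM in MRPL42 siRNA libraries, from 104, 112 and 162 counts. It had 15.1, 12.9 and 3.66 CPM in control siRNA libraries, from 293, 237 and 69 counts. Control library c was thus the lowest of all 9 and libraries a and b the highest, so both knockdown groups lay inside the range of the controls. In bulk RNA, fewer cells making a transcript and less of it per cell cannot be told apart.

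On the log2 scale MT2A differed from control siRNA by -0.75 (SE 0.41) in UXS1 siRNA cells and by -0.49 (SE 0.40) in MRPL42 siRNA cells with all libraries. Without control library c the differences were -1.17 (SE 0.13) and -0.90 (SE 0.13). No knockdown library then overlapped a control, an order that 18.4% of all genes showed for UXS1 siRNA and 17.4% for MRPL42 siRNA. The leukocyte and histone sums of control libraries a and b lay on the other side, below the knockdowns. The mean level was 6.29 ± 0.694 CPM in UXS1 siRNA cells, 7.50 ± 0.945 CPM in MRPL42 siRNA cells and 10.6 ± 6.07 CPM in control siRNA cells (SD, n = 3 each), so the spread among the controls exceeded the difference of either knockdown from them.

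**Figure D2:**
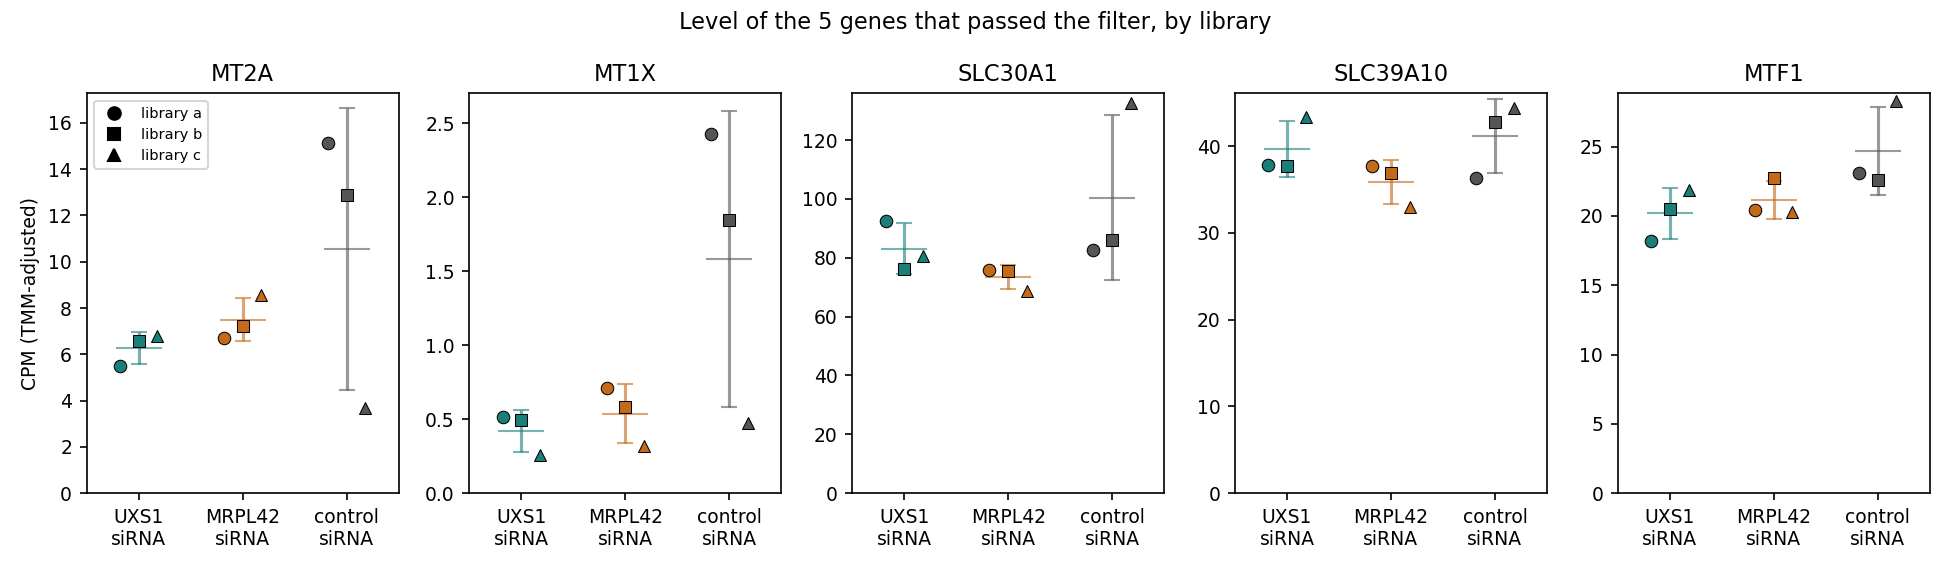
CPM (y axis, from 0) of the 5 genes that passed the filter in each library, with the mean (line) and SD (bar) of 3 libraries per group. For MT2A and MT1X control libraries a and b lie above all 6 knockdown libraries and library c does not; for SLC30A1 library c is the highest point at 133 CPM.

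MT1X, the second metallothionein with counts in every library, was also highest in control libraries a and b, at a level near the filter. It had 9, 11 and 4 counts in UXS1 siRNA libraries, or 0.516, 0.492 and 0.259 CPM. It had 11, 9 and 6 counts in MRPL42 siRNA libraries, or 0.711, 0.582 and 0.317 CPM. It had 47, 34 and 9 counts in control siRNA libraries, or 2.42, 1.85 and 0.477 CPM. Control libraries a and b were the highest, while library c lay among the knockdown libraries and was not the lowest, as it was for MT2A. The log2 difference from control siRNA was -1.86 (SE 0.58) in UXS1 siRNA cells and -1.58 (SE 0.57) in MRPL42 siRNA cells with all libraries. Without control library c it was -2.30 (SE 0.34) and -2.02 (SE 0.34). MT1X passed the filter through 4 libraries, MRPL42 siRNA a and b and control siRNA a and b, so its passing leaned on the group where it was high.

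The share of MT1X in the joint counts of MT1X and MT2A needs no scaling between libraries, and by this measure control library c lay with the other controls. MT1X made up 8.57% (3.995% to 15.6%), 6.96% (3.53% to 12.1%) and 3.67% (1.009% to 9.13%) in UXS1 siRNA libraries a, b and c. It made up 9.57% (4.87% to 16.5%), 7.44% (3.46% to 13.7%) and 3.57% (1.32% to 7.61%) in MRPL42 siRNA libraries. It made up 13.8% (10.3% to 17.955%), 12.5% (8.85% to 17.1%) and 11.5% (5.41% to 20.8%) in control siRNA libraries. Brackets give exact Clopper-Pearson 95% intervals, which cover counting error only, and reads copied by PCR, with no molecular identifier, do not each stand for a molecule. The mean share was 6.40% ± 2.498 in UXS1 siRNA cells, 6.86% ± 3.04 in MRPL42 siRNA cells and 12.6% ± 1.15 in control siRNA cells (SD, n = 3 each). No knockdown library reached any control library, but the intervals of 4 knockdown libraries overlapped those of all 3 controls. The measure was chosen with the values of both genes known, so it is given without a test.

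**Figure D3:**
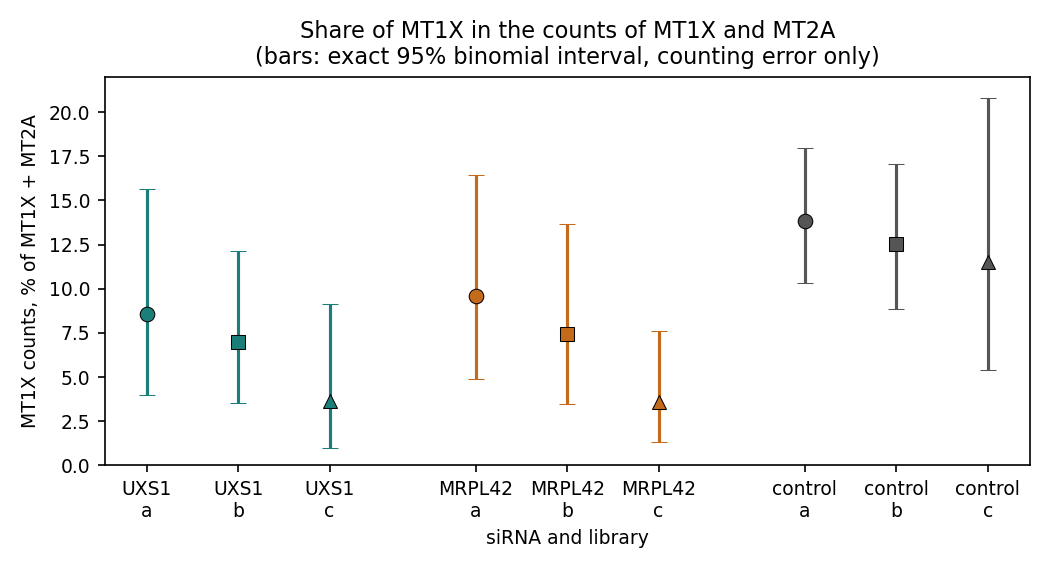
Counts of MT1X as a percentage of the counts of MT1X and MT2A (y axis, from 0) in each library, with exact 95% binomial intervals as bars. All 6 knockdown libraries lie at or below 9.57% and all 3 control libraries, c included, at or above 11.5%.

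The remaining metallothioneins were at or near the limit of detection in every group. A count of 3, the limit that a count of 0 allows, equals 0.134 to 0.194 CPM in these libraries. MT1F had no count in any of the 9 libraries, and MT1E had 1 count in all, in UXS1 siRNA library b. MT1M had 1, 2 and 0 counts in UXS1 siRNA libraries, 1, 3 and 1 in MRPL42 siRNA libraries and 1, 2 and 0 in control siRNA libraries, with no visible order between groups. MT1G had 1, 2 and 1 counts in UXS1 siRNA libraries, 1, 1 and 0 in MRPL42 siRNA libraries and 5, 11 and 1 in control siRNA libraries. Its counts above 3 were thus in control libraries a and b, the libraries where MT2A and MT1X were also highest. None of these 4 genes passed the filter, and no fold change is given for them.

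Outside the 6 genes, MT1A had between 0 and 4 counts per library, while MT1B, MT1H, MT1HL1, MT3 and MT4 had none in any library. MT1H had no count although its promoter window held 8 matches to the core, 1 more than that of MT2A. Over the 12 metallothioneins in the table, of which 6 were at 0 throughout, the summed level was 6.19, 7.33 and 7.12 CPM in UXS1 siRNA libraries. The sum was 7.69, 8.34 and 8.97 CPM in MRPL42 siRNA libraries, against 17.9, 15.5 and 4.24 CPM in control siRNA libraries. The sum was highest in control libraries a and b and lowest in library c, as for MT2A, which supplied 82.9% to 95.5% of these counts, and it does not depend on how reads were divided among these 12 genes. The log2 ratio of group means was -0.87 for UXS1 siRNA against control siRNA, -0.59 for MRPL42 siRNA against control siRNA and -0.28 for UXS1 siRNA against MRPL42 siRNA.

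Metallothionein transcripts are short, 786 bases for the MT2A transcript used and 450 for that of MT1X against a median of 2587.5 bases over genes. In control libraries a and b short transcripts as a class stood below the knockdown libraries, where MT2A and MT1X stood above them. Over 733 genes under 1000 bases, the mean relative level on the log2 scale was 0.15, 0.22 and 0.04 in UXS1 siRNA libraries and 0.38, -0.14 and 0.22 in MRPL42 siRNA libraries. It was -0.22, -0.28 and -0.38 in control siRNA libraries, lower than in all 6 knockdown libraries. In control library c short transcripts as a class and MT2A were thus both at their lowest. With offsets for length, the log2 difference of MT2A was -1.14 (SE 0.40) in UXS1 siRNA cells and -0.88 (SE 0.39) in MRPL42 siRNA cells against control siRNA, all libraries included. For MT1X the same fit gave -2.53 (SE 0.55) and -2.27 (SE 0.55).

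The zinc exporter gene SLC30A1, a classical MTF1 target, did not share the order of the metallothioneins. It had 92.6, 76.05 and 80.7 CPM in UXS1 siRNA libraries. It had 75.8, 75.6 and 68.7 CPM in MRPL42 siRNA libraries. It had 82.6, 86.0 and 133 CPM in control siRNA libraries. Control library c, the lowest for MT2A, was the highest for SLC30A1. All 3 MRPL42 siRNA libraries lay below all controls, an order that 10.5% of all genes showed, while the UXS1 siRNA libraries overlapped the controls. The log2 difference from control siRNA was -0.27 (SE 0.17) in UXS1 siRNA cells and -0.45 (SE 0.17) in MRPL42 siRNA cells. Without control library c it was -0.03 (SE 0.08) and -0.21 (SE 0.08), so both estimates were smaller without it.

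The importer gene SLC39A10 varied little between groups, while MTF1 was lower in the UXS1 siRNA libraries than in the controls. SLC39A10 had 37.9, 37.7 and 43.4 CPM in UXS1 siRNA libraries, 37.7, 36.9 and 33.0 CPM in MRPL42 siRNA libraries and 36.3, 42.8 and 44.4 CPM in control siRNA libraries. Its groups overlapped in each pair. The log2 difference of SLC39A10 from control siRNA was -0.05 (SE 0.10) in UXS1 siRNA cells and -0.20 (SE 0.10) in MRPL42 siRNA cells, and without control library c it was -0.01 (SE 0.10) and -0.15 (SE 0.10). MTF1 had 18.2, 20.5 and 21.9 CPM in UXS1 siRNA libraries, 20.4, 22.8 and 20.3 CPM in MRPL42 siRNA libraries and 23.1, 22.6 and 28.3 CPM in control siRNA libraries. All UXS1 siRNA libraries were below all controls for MTF1, an order that 10.9% of all genes showed. For MRPL42 siRNA, 1 library was not below all controls. The log2 difference of MTF1 from control siRNA was -0.29 (SE 0.11) in UXS1 siRNA cells and -0.22 (SE 0.11) in MRPL42 siRNA cells, and without control library c it was -0.19 (SE 0.10) and -0.12 (SE 0.10).

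Levels between genes were compared as CPM per kb of transcript, with the length of the principal GENCODE 29 transcript. In UXS1 siRNA cells the order was SLC30A1 (15.2 ± 1.56 CPM per kb), MT2A (8.002 ± 0.882) and SLC39A10 (7.37 ± 0.601), of which MT2A and SLC39A10 lay within 1 SD of each other, and then MTF1 (2.53 ± 0.232) and MT1X (0.938 ± 0.315). In MRPL42 siRNA cells the order was SLC30A1 (13.4 ± 0.736 CPM per kb), MT2A (9.55 ± 1.20), SLC39A10 (6.67 ± 0.470), MTF1 (2.65 ± 0.175) and MT1X (1.19 ± 0.446). In control siRNA cells SLC30A1 (18.3 ± 5.11 CPM per kb) did not separate from MT2A (13.4 ± 7.73), nor MT2A from SLC39A10 (7.65 ± 0.799), nor MT1X (3.52 ± 2.22) from MTF1 (3.10 ± 0.397; SD, n = 3 throughout). The place of MT2A rests on the transcript taken, since its shortest annotated transcript with 3 exons has 416 bases in place of 786. With that length MT2A would stand at 15.1 ± 1.67 CPM per kb in UXS1 siRNA cells, 18.04 ± 2.27 in MRPL42 siRNA cells and 25.4 ± 14.6 in control siRNA cells, so its order against SLC30A1 is not settled by these counts. In control library c SLC30A1 had 24.2 CPM per kb and MT2A 4.66, whereas in libraries a and b SLC30A1 had 15.1 and 15.7 and MT2A 19.2 and 16.4 with the principal transcript.

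**Figure D4:**
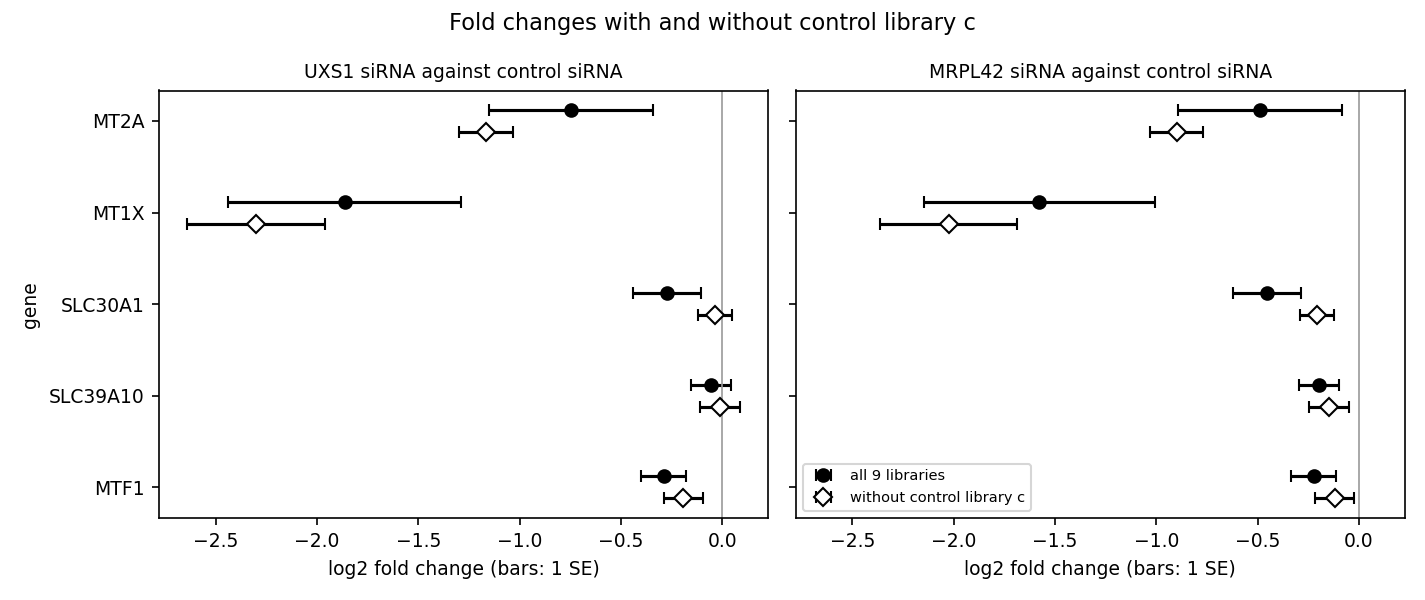
Log2 fold change against control siRNA (x axis; bars, 1 SE) of the 5 genes that passed the filter, for UXS1 siRNA (left) and MRPL42 siRNA (right), from all 9 libraries (filled) and without control library c (open). MT2A and MT1X lie further from 0 without library c, and SLC30A1 and MTF1 lie nearer to 0.

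Of the 9 genes, 5 passed the filter and entered the fit of all genes. With all libraries, 0 of the 5 were past an adjusted p of 0.05 for UXS1 siRNA against control siRNA, where 0.0158% of 12657 genes were, and 0 of the 5 for MRPL42 siRNA against control siRNA, where 0% were. In each comparison 2 of the 5 were past an unadjusted p of 0.05 in edgeR, against 2249 genes in all for UXS1 siRNA and 2561 for MRPL42 siRNA, and DESeq2 placed none of the 5 past the adjusted threshold. Groups that did not overlap, with the knockdown lower, were found for 1 of the 5 with UXS1 siRNA (MTF1), where 10.9% of all genes showed this, and for 1 with MRPL42 siRNA (SLC30A1), where 10.5% did. Without control library c, 2 of the 5, MT2A and MT1X, were past the adjusted threshold and lower in both comparisons, where 1.07% of 12747 genes were with UXS1 siRNA and 0.792% with MRPL42 siRNA. In that set 3 of the 5 stood below the controls with no overlap for UXS1 siRNA (MT2A, MT1X and MTF1), where 18.4% of all genes did, and 3 for MRPL42 siRNA (MT2A, MT1X and SLC30A1), where 17.4% did. The genes were chosen with these comparisons known, MT1X passed the filter partly through control libraries a and b, and both comparisons share the controls, so the counts support nothing.

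UXS1 siRNA and MRPL42 siRNA were compared with each other, and none of the 5 genes differed past the threshold. The controls do not enter the difference of means, but the fit takes the spread over all 9 libraries, so the errors and intervals rest on the controls too. edgeR placed 0% of 12657 genes past an adjusted p of 0.05 in this comparison, with 218 past an unadjusted p of 0.05, and DESeq2 placed 0 as well. The log2 difference of MT2A was -0.26 (SE 0.41, 95% interval -1.19 to 0.68) and that of MT1X -0.29 (SE 0.67, -1.80 to 1.23), each with an adjusted p of 0.9998 in edgeR. For SLC30A1 it was 0.18 (SE 0.17, -0.20 to 0.56), with all 3 UXS1 siRNA libraries above all 3 MRPL42 siRNA libraries, an order that 5.8% of all genes showed. For SLC39A10 it was 0.14 (SE 0.10, -0.08 to 0.37) and for MTF1 -0.07 (SE 0.11, -0.32 to 0.19). The adjusted p in edgeR was 0.9998 for these as well. With all libraries the intervals allow a change of more than 2-fold for MT2A and MT1X downwards, so these values do not show that both siRNAs act alike. The estimates were close to these without control library c and the intervals were narrower, at -0.56 to 0.03 for MT2A, -1.21 to 0.66 for MT1X and 0.00 to 0.34 for SLC30A1. SLC30A1 was then past 0.05 before adjustment but not after it (adjusted p = 0.868 in edgeR).

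The genes most like MT2A across libraries were found by Pearson's r of log2 CPM among 10483 genes with a mean of at least 5 CPM. Over 9 libraries they were GAR1, of the box H/ACA ribonucleoproteins (r = 0.977, Spearman's rho 0.83), the transporter gene SLC35F6 (0.976, rho 0.88), the neutral amino acid transporter gene SLC1A4 (0.973, rho 0.83), the alanine aminotransferase gene GPT2 (0.970, rho 0.87) and the aspartate aminotransferase gene GOT1 (0.970, rho 0.88). All 5 were high in control libraries a and b and low in library c. GPT2 had 70.8, 74.4 and 73.5 CPM in UXS1 siRNA libraries and 77.9, 73.9 and 78.0 CPM in MRPL42 siRNA libraries, against 115, 112 and 45.3 CPM in control siRNA libraries. SLC1A4 had 55.7, 61.9 and 62.1 CPM in UXS1 siRNA libraries and 69.5, 60.2 and 66.5 CPM in MRPL42 siRNA libraries, against 94.6, 93.0 and 43.2 CPM in control siRNA libraries. MT2A had the wider range of the group, as the ratio of its highest to its lowest library was larger than that of GPT2 or SLC1A4.

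Over the 8 libraries without control library c the nearest genes were PPP1R15A, which encodes the phosphatase subunit GADD34 (r = 0.992), the hexokinase-like gene HKDC1 (0.980), the brain-type glycogen phosphorylase gene PYGB (0.980), GOT1 (0.976) and the ETS factor gene ETV5 (0.976). GOT1 was the gene named both times. PPP1R15A and HKDC1 had 119 and 319 CPM in control library c, more than in any other library, so they parted from MT2A there. Among the zinc genes, r with MT2A over 9 libraries was 0.74 for MT1X, -0.54 for SLC30A1, -0.32 for SLC39A10 and -0.16 for MTF1. Over 8 libraries it was 0.83 for MT1X, 0.06 for SLC30A1, 0.01 for SLC39A10 and 0.71 for MTF1. The points share groups and depth, and a few control libraries set these values, so they are descriptions.

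**Figure D5:**
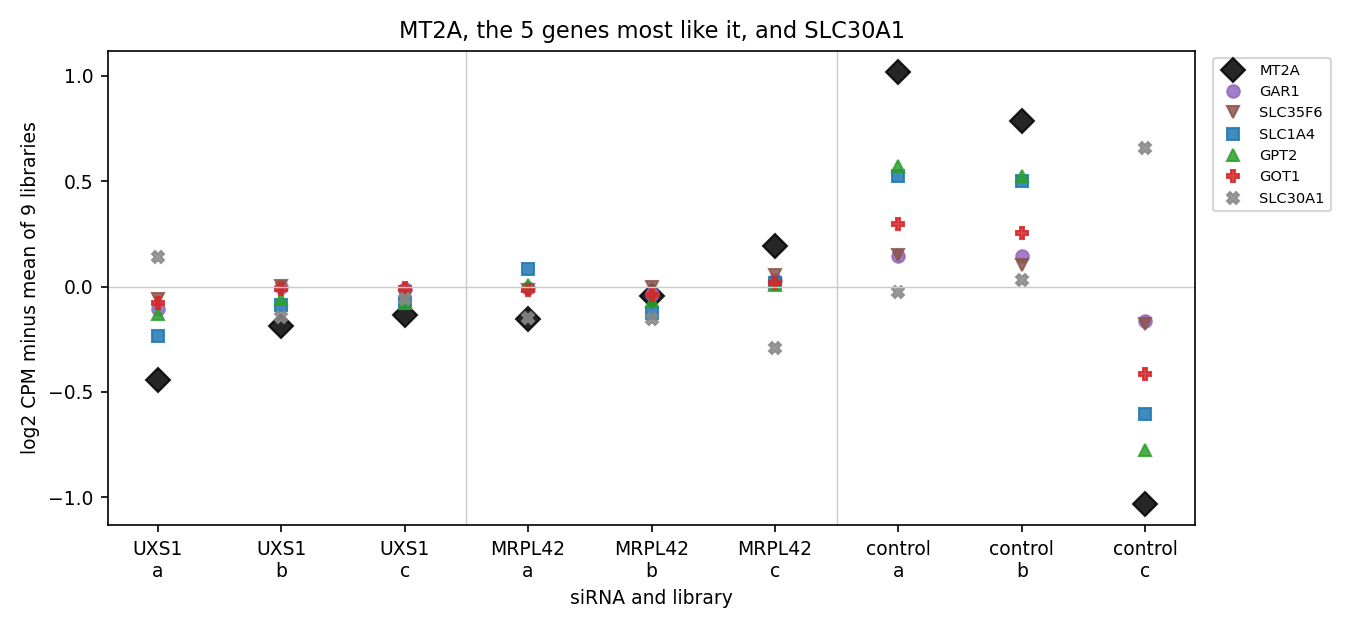
Log2 CPM minus the mean of the 9 libraries (y axis) for MT2A, the 5 genes with the highest Pearson's r with it over 9 libraries, and SLC30A1, in each library (x axis). MT2A and the 5 genes are high in control libraries a and b and low in control library c, where SLC30A1 is highest.

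Zinc and metal genes were also read from 8 lists, in which 57 genes were tested, among them SLC30A1 and SLC39A10, described above. With all libraries none of the 57 passed edgeR's adjusted threshold in any of the 3 comparisons. At an unadjusted p of 0.05 in edgeR there were 14 for UXS1 siRNA and 19 for MRPL42 siRNA against control siRNA and 0 between the knockdowns. Of all 12657 genes, 2249, 2561 and 218 were past it. DESeq2 placed 4, 5 and 0 of the 57 past the adjusted threshold, against 460, 677 and 0 of all 12657 genes. The list medians below stand beside medians over all genes of 0.00 or -0.01.

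Among the ZnT exporters, 5 of 10 listed genes were tested, SLC30A1 among them, and all 5 estimates were below 0 in both knockdowns. The median log2 difference from control siRNA was -0.10 in UXS1 siRNA cells and -0.25 in MRPL42 siRNA cells. Without control library c, 4 of 5 and 5 of 5 were below 0, with medians of -0.03 and -0.18. SLC30A2, SLC30A8 and SLC30A10 had no count in any library. SLC30A7, an exporter of the secretory pathway, differed by -0.14 (SE 0.09, adjusted p = 0.460 in edgeR) in UXS1 siRNA cells and by -0.31 (SE 0.09, adjusted p = 0.145) in MRPL42 siRNA cells, and by -0.06 and -0.23 without control library c. SLC30A5, which works with SLC30A6 in the early secretory pathway, differed by -0.22 (SE 0.07, adjusted p = 0.152 in edgeR) in MRPL42 siRNA cells, and by -0.18 without control library c. Between the knockdowns all 5 estimates were above 0, with a median of 0.15.

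Of 14 ZIP importers, 11 were tested, SLC39A10 among them. Of these, 6 were above and 5 below 0 in UXS1 siRNA cells (median 0.06) and 5 above and 6 below 0 in MRPL42 siRNA cells (median -0.03). The counts were the same without control library c and the medians 0.02 and -0.06. SLC39A4, the intestinal zinc importer, had 17.99, 22.04 and 15.5 CPM in UXS1 siRNA libraries, against 11.7, 12.3 and 12.3 CPM in control siRNA libraries. The UXS1 siRNA libraries were all above the controls, an order that 15.3% of all genes showed, at a log2 difference of 0.62 (SE 0.23, adjusted p = 0.221 in edgeR), and of 0.63 without control library c. SLC39A1, a plasma membrane importer, differed by 0.26 (SE 0.10, adjusted p = 0.236) in UXS1 siRNA cells and by 0.30 (SE 0.10, adjusted p = 0.165) in MRPL42 siRNA cells in the same test, but by only 0.13 and 0.18 without control library c. SLC39A6 differed by -0.19 (SE 0.07, adjusted p = 0.182 in edgeR) in MRPL42 siRNA cells, and by -0.20 without control library c.

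Reported MTF1 targets other than metallothioneins and transporters, 8 of 8 tested, had medians of 0.00 in UXS1 siRNA cells and 0.20 in MRPL42 siRNA cells against control siRNA, and of 0.04 and 0.11 without control library c. HAMP, which encodes the iron hormone hepcidin, had 2.69, 3.44 and 2.98 CPM in UXS1 siRNA libraries and 3.42, 1.49 and 2.85 CPM in MRPL42 siRNA libraries, against 0.671, 1.47 and 0.212 CPM in control siRNA libraries. Its log2 differences were 1.96 (SE 0.51, adjusted p = 0.173 in edgeR) and 1.72 (SE 0.51, adjusted p = 0.142). They were 1.51 and 1.28 without control library c, 1.44 and 1.15 with offsets for length, and 1.04 and 0.77 with both. NDRG1, a gene of the hypoxia and metal response, had 121, 124 and 125 CPM in UXS1 siRNA libraries and 123, 127 and 122 CPM in MRPL42 siRNA libraries, against 158.5, 154 and 293 CPM in control siRNA libraries. It fell in the fit without control library c, by 0.36 on the log2 scale in UXS1 siRNA cells (adjusted p = 0.00823 in edgeR) and by 0.34 in MRPL42 siRNA cells (adjusted p = 0.0153). With all libraries its estimates were -0.71 (adjusted p = 0.178) and -0.70 (adjusted p = 0.145). GCLC, which makes the first step of glutathione synthesis, differed by -0.21 (SE 0.06, adjusted p = 0.141 in edgeR) in MRPL42 siRNA cells, and by -0.24 without control library c.

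Copper genes were tested because metallothioneins also hold copper, and 10 of 10 passed the filter, with medians of 0.22 in both knockdowns, and of 0.16 in UXS1 siRNA cells and 0.17 in MRPL42 siRNA cells without control library c. The copper chaperones COX17 and ATOX1 differed from control siRNA by 0.52 (adjusted p = 0.174 in edgeR) and 0.69 (adjusted p = 0.174) in UXS1 siRNA cells, and by 0.59 (adjusted p = 0.135) and 0.75 (adjusted p = 0.136) in MRPL42 siRNA cells. These were 0.43 and 0.66 in UXS1 siRNA cells and 0.51 and 0.72 in MRPL42 siRNA cells without control library c. Both encode small proteins, and short transcripts as a class were lower in the control libraries, as given above. With offsets for length the differences of COX17 and ATOX1 were 0.03 and 0.14 in UXS1 siRNA cells and 0.08 and 0.15 in MRPL42 siRNA cells. The copper importer gene SLC31A1 had 85.3, 82.5 and 91.7 CPM in UXS1 siRNA libraries and 82.7, 90.9 and 85.05 CPM in MRPL42 siRNA libraries, against 105, 109 and 94.9 CPM in control siRNA libraries. All 6 knockdown libraries were below all controls, an order that 10.9% of all genes showed for UXS1 siRNA and 10.5% for MRPL42 siRNA. In the fit without control library c SLC31A1 fell by 0.32 on the log2 scale in each knockdown (adjusted p = 0.0409 for UXS1 siRNA and 0.0466 for MRPL42 siRNA in edgeR).

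Of the pathways that act on metallothioneins beside MTF1, the glucocorticoid list holds the receptor gene NR3C1 and its targets. With all libraries the 8 tested genes had medians of 0.07 in UXS1 siRNA cells and 0.05 in MRPL42 siRNA cells, and without control library c all 8 estimates were below 0 in both knockdowns, with medians of -0.23 and -0.13. In that fit 2 of the 8 passed the threshold for UXS1 siRNA (TSC22D3 and KLF9) and 1 for MRPL42 siRNA (TSC22D3). Of all 12747 genes, 1.07% and 0.792% passed it and were lower. The part of glucocorticoid signalling was not tested. The mean relative level of the 8 tested genes was 0.02 to 0.07 on the log2 scale in the knockdown libraries. It was 0.25, 0.22 and -0.77 in control libraries a, b and c, so the mean was highest and lowest where MT2A was. Not every gene of the list followed this order, since DUSP1 had 20.7 CPM in control library c, against 21.4 and 19.3 CPM in libraries a and b. TSC22D3, which encodes the glucocorticoid-induced leucine zipper, had 67.9, 73.1 and 73.3 CPM in UXS1 siRNA libraries and 70.0, 65.8 and 68.9 CPM in MRPL42 siRNA libraries, against 92.8, 92.3 and 27.2 CPM in control siRNA libraries. In the fit without control library c it fell by 0.39 on the log2 scale in UXS1 siRNA cells (adjusted p = 0.0102 in edgeR) and by 0.45 in MRPL42 siRNA cells (adjusted p = 0.00711). KLF9, a transcription factor gene induced by glucocorticoids, had 60.6, 56.5 and 62.5 CPM in UXS1 siRNA libraries, against 73.4, 72.9 and 21.5 CPM in control siRNA libraries, and fell by 0.30 in that fit (adjusted p = 0.0465 in edgeR). With all libraries the estimates for UXS1 siRNA were 0.01 for TSC22D3 and 0.10 for KLF9. The sign of KLF9 turned only in fits without control library c. That of TSC22D3 turned there too, but also without UXS1 siRNA library b or c and with the length correction.

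The acute phase list had 6 of 10 genes tested, and CRP and LBP had no count in any library. Medians were 0.63 in UXS1 siRNA cells and 0.32 in MRPL42 siRNA cells with all libraries, and 0.08 and -0.03 without control library c, where 4 of 6 and 3 of 6 estimates were above 0. The mean relative level of the tested genes was 0.14 to 0.54 on the log2 scale in the knockdown libraries. It was 0.19, 0.13 and -2.84 in control libraries a, b and c. The fibrinogen genes FGA, FGB and FGG spanned 8.27 to 82.7, 1.59 to 34.2 and 0 to 19.0 CPM among the control siRNA libraries. SAA1, an acute phase protein gene, had 2.74, 2.54 and 2.27 CPM in UXS1 siRNA libraries and 3.02, 0.970 and 1.90 CPM in MRPL42 siRNA libraries, against 0.671, 0.598 and 0 CPM in control siRNA libraries. It rose by 1.97 on the log2 scale in UXS1 siRNA cells without control library c (adjusted p = 0.0498 in edgeR), and with all libraries the estimate was 2.56 (adjusted p = 0.171). For MRPL42 siRNA the estimates were 1.61 without control library c (adjusted p = 0.101 in edgeR) and 2.20 with all libraries (adjusted p = 0.145), neither past the threshold. SAA1 had decimals in its counts, and its near-identical copy SAA2 makes its level uncertain. STAT3 itself differed by -0.04 (adjusted p = 0.9998 in edgeR) between the knockdowns. In the heat shock list, 9 of 9 tested, medians were -0.12 in UXS1 siRNA cells and -0.18 in MRPL42 siRNA cells with all libraries but 0.00 in both without control library c, with 5 and 4 of 9 estimates below 0. HSPA6, a strictly inducible HSP70 gene, had 1.37, 1.48 and 1.68 CPM in UXS1 siRNA libraries and 1.29, 1.88 and 1.95 CPM in MRPL42 siRNA libraries, against 2.63, 2.39 and 3.82 CPM in control siRNA libraries. All 6 knockdown libraries were below all controls, an order that 10.9% of all genes showed for UXS1 siRNA and 10.5% for MRPL42 siRNA. The log2 differences of HSPA6 were -0.96 (adjusted p = 0.171 in edgeR) and -0.78 (adjusted p = 0.150), and -0.75 and -0.55 without control library c.

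Genes on either side of the metallothionein cluster were measured as neighbours of MT2A and MT1X. The nearest tested genes, BBS2 at 44.8 kb before the cluster and NUP93 at 45.9 kb after it, had log2 differences of -0.01 (SE 0.07) and -0.02 (SE 0.07) in UXS1 siRNA cells and 0.04 (SE 0.07) and 0.00 (SE 0.07) in MRPL42 siRNA cells with all libraries. OGFOD1, 85.9 kb before the cluster, was at -0.20 (SE 0.08) and -0.17 (SE 0.08). Without control library c the estimates for UXS1 siRNA were -0.02 for BBS2, -0.10 for NUP93 and -0.25 for OGFOD1, against -1.17 for MT2A. The difference between these genes and MT2A was not tested.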

How the data were processed

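The authors deposited 1 table with estimated counts per gene, not divided by depth or length, as its column names and values show; 9 further columns with values per library were not used. The submitters' processing notes name the build hg38 and the tools HISAT2, Bowtie2, fastp and edgeR, while versions, the counting program and any rule for reads matching several genes were not given in the sources used here. Library preparation had no stated strand rule. Between 15.1% and 16.4% of the values above 0 per library were not whole, so a design written for counts was run on rounded estimated counts; 646 of 20379 rows had no symbol. Columns were mapped by group name; the UXS1 columns carry that name with letters exchanged.

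edgeR 4.0.16 in R 4.3.3 was run with filterByExpr (minimum count 10), TMM, 1 mean per group over all 9 libraries and a two-sided quasi-likelihood test, with Benjamini-Hochberg adjustment over all genes tested and a threshold of 0.05. Alternatives were DESeq2 1.42.0, its size factors, no filter, unrounded counts, only the libraries compared, each library left out, and transcript length offsets per library (lowess, span 0.3; the principal GENCODE 29 transcripts). Precision follows from 15265959 to 22400560 counts per library and, for MT2A and MT1X, from the counts printed. The test was checked on simulated data with 200 changed genes. No simulated library was made to stand apart, so the check does not cover the effect of control library c. The genes and lists were chosen with earlier results of these data known. Named genes are the 9 genes, up to 4 genes past the threshold per list or else the 2 with the smallest p, of which those that bear on zinc and metals are described, and the 5 genes most like MT2A. Levels per kb are CPM divided by the length of the principal transcript. Motifs were searched in RefSeq promoters (GRCh38.p14).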

Additional observations from a re-analysis of the deposited data

How the results depend on the processing

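No paired analysis was possible because the columns carry the letters a to c, which no label ties to the repeat numbers. Between the knockdowns every setting run gave 0 genes past the threshold. For UXS1 siRNA against control siRNA, where edgeR with all libraries placed 2 genes past it, DESeq2 placed 460, a fit of the 6 libraries compared 253, the length correction 8, and 324 once control library c was also left out; leaving out 1 library gave 0 to 355, with 201 without control library c and 355 without MRPL42 siRNA library b. For MRPL42 siRNA against control siRNA, with 0 in edgeR, DESeq2 placed 677, the length correction 4, and 294 once control library c was also left out; leaving out 1 library gave 0 to 810, with 169 without control library c and 810 without MRPL42 siRNA library b. Of the 5 zinc genes tested, 0 were past the threshold in either comparison with all libraries. Without control library c 2 were, MT2A and MT1X, where 1.07% of all genes were past it and lower for UXS1 siRNA and 0.792% for MRPL42 siRNA. The same 2 were past it with the length correction as well, where 192 and 160 of 12661 genes were past it and lower. Leaving out 1 library gave 0 to 2, and as stated above these counts support nothing. Of the 57 list genes, 0 in edgeR, DESeq2 placed 4 for UXS1 siRNA and 5 for MRPL42 siRNA, the fit of 6 libraries 1 for UXS1 siRNA, and length correction with control library c left out 6 and 5; leaving out 1 library gave 0 to 5 in both, with 5 and 3 without control library c and 3 and 5 without MRPL42 siRNA library b. MT2A kept a negative estimate against control siRNA in every setting, between -1.52 and -0.39 for UXS1 siRNA and between -1.27 and -0.14 for MRPL42 siRNA; MT1X did so between -2.92 and -1.41 and between -2.69 and -1.13 wherever it passed the filter, which it did not in the fit of the 6 libraries of UXS1 siRNA and control siRNA. SLC30A1 for UXS1 siRNA was 0.03 with the length correction without control library c. Estimates that turned sign and passed the threshold were TSC22D3 for UXS1 siRNA (-0.39 without control library c, -0.39 with the length correction as well; leaving out 1 library gave -0.39 to 0.26), KLF9 for UXS1 siRNA (-0.30 and -0.24; leaving out 1 library gave -0.30 to 0.34) and FGG for MRPL42 siRNA (-0.51 with the length correction without control library c). The summed metallothionein level stayed below control siRNA in every setting, at -1.28 to -0.52 for UXS1 siRNA and -1.005 to -0.25 for MRPL42 siRNA on the log2 scale; a sum of deposited values per length was planned and not run. The cause of these differences between settings was not tested. Depth limits MT1X and the metallothioneins below it: 4 to 11 counts per knockdown library set the share of MT1X.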
